A study of Mus musculus with 15 samples.

Results

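The 10 genes described here are immediate early and AP-1 genes of the mouse colon, Fos, Fosb, Jun, Junb, Jund, Egr1, Atf3, Ier2, Dusp1 and Zfp36. They were taken by gene symbol from 3 count tables that together list 12897 genes. All 10 were found in at least 1 table, and 9 were among the 12370 genes that all 3 tables list. Fosb was not listed in the table that holds the treated Irf1-/- mice, so its level in that group was not analysed here.

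Immediate early genes are transcribed within minutes of a stimulus, because the factors that switch them on already sit in the cell and need only be phosphorylated. Fos and Jun proteins pair through leucine zippers to form the transcription factor AP-1, Egr1 is a zinc finger activator induced by the same kinase cascades, and Dusp1 and Zfp36 close the loop by dephosphorylating MAP kinases and by marking short-lived mRNAs for decay. In the intestine these genes respond to growth factors, cytokines and wounding, and also to the handling of the tissue itself.

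RNA-seq was performed on ribosome-depleted total RNA of distal colon, which holds epithelium, muscle, stroma and immune cells together. The mice were C57BL/6 wildtype animals (B6; the study's methods name C57BL/6J) or Irf1-/- mutants lacking interferon regulatory factor 1, on the B6 background, and their age was not given in the labels, while the study's methods state 8–10 weeks for mice entering its colitis-associated tumor model. Treated mice (D26) received 1 injection of 7 mg/kg of the carcinogen azoxymethane (AOM) on day 1 and 2% dextran sulfate sodium (DSS), a detergent-like polymer that injures the epithelium, in a single 4-day course from day 8 to day 11 and their colon was collected on day 26. Untreated B6 mice came as 2 separate control sets, set 1 tabulated with the treated B6 mice and set 2 with the untreated Irf1-/- mice, and these were kept apart.

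Each of the 5 groups held 3 mice, described by the submitters as biological replicates, giving 15 libraries. Counts over the 12370 shared genes summed to between 22237032 and 22840011 per library, so depth was nearly equal. Levels are given as CPM, a gene's count over its library's total in the usual unit, after TMM scaling of the totals, mice 1, 2 and 3 of each group in the order of their labels.

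Irf1, the targeted gene, was at 161, 155 and 144 CPM in B6 set 1, 141, 128 and 130.5 in set 2, and 173, 223 and 227 in treated B6. In the mutants it was at 79.4, 117 and 87.6 CPM untreated and 108, 123.2 and 99.97 treated. Every Irf1-/- library lay below every B6 library, although reads of the locus were still counted.

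Xist, the non-coding RNA of the inactive X chromosome, set 3 libraries apart from the rest. It was at 25.2 and 5.97 CPM in treated B6 mice 1 and 2 and at 11.6 CPM in treated Irf1-/- mouse 1, against 321 to 3729 CPM in the other 12 libraries.

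The tissue label was checked against defining markers. All 9 epithelial and all 10 smooth muscle markers were detected, led by Krt8 at a mean of 3707 CPM and Myh11 at 2754 CPM. Of 12 leukocyte markers 9 were listed in all tables, led by Lyz2 at 198 CPM. Because whole tissue was sequenced, more cells of a type and more RNA per cell cannot be told apart in any of the values that follow.

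Levels between genes were compared per kilobase of the longest annotated transcript. Jund was the most abundant, at 174 ± 22.1 CPM per kb (mean ± SD over 15 libraries), followed by Junb at 62.2 ± 11.7, Fos at 40.7 ± 13.5 and Jun at 28.4 ± 4.97. Ier2 at 19.5 ± 1.69, Atf3 at 13.4 ± 4.64, Zfp36 at 12.2 ± 2.96 and Dusp1 at 8.82 ± 2.18 CPM per kb made a middle range. Egr1 at 2.63 ± 0.763 and Fosb at 1.45 ± 0.765 (12 libraries) were the lowest. Neighbours in this order overlapped in their ranges over libraries, except that every library of Jund lay above all other genes and every library of Egr1 and Fosb below all other genes.

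**Figure D1:**
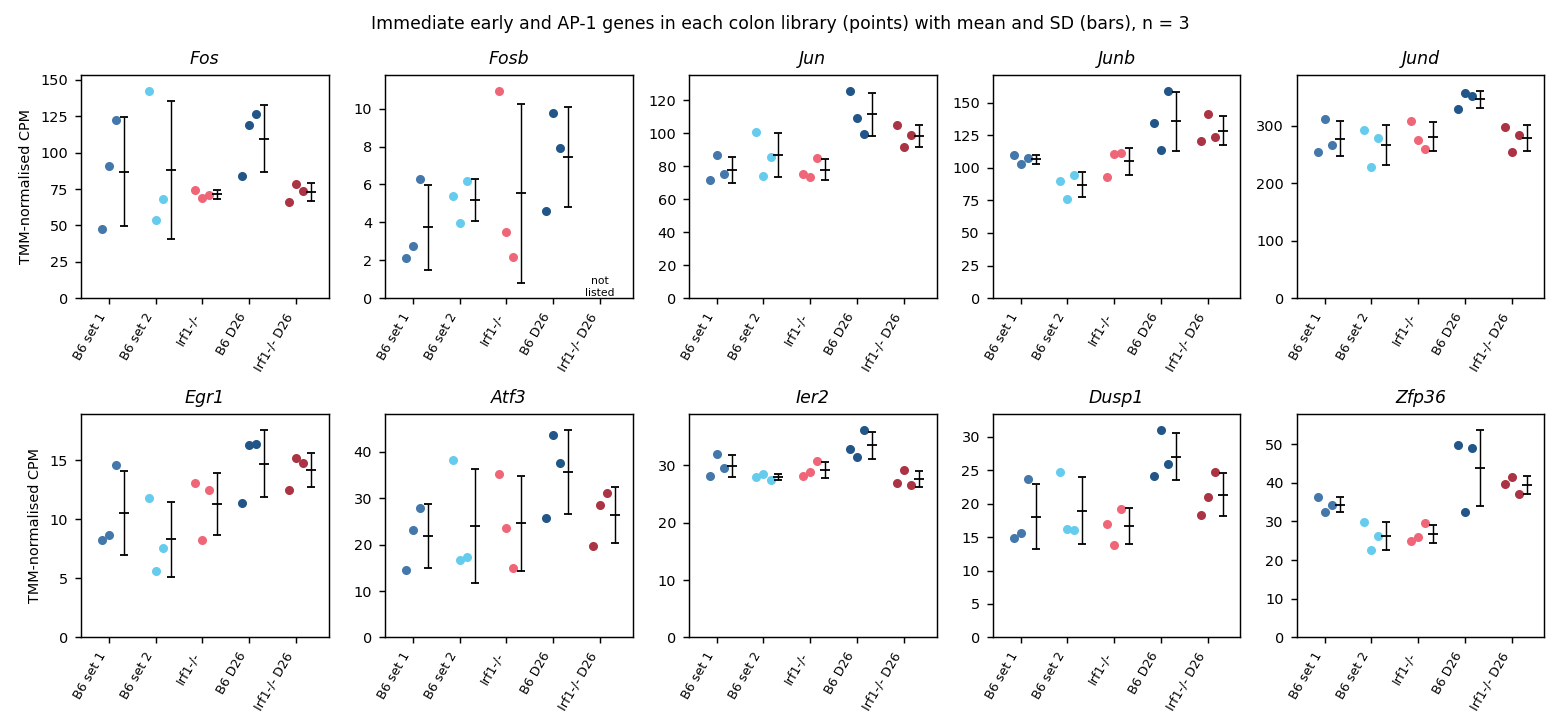
Level of each of the 10 genes in every colon library, in TMM-normalised CPM on a linear axis from 0, with the mean and SD of the 3 mice of a group beside the points. Fos ran from 47.7 to 142 CPM within the untreated B6 mice but from 66.05 to 78.6 CPM in the 6 Irf1-/- mice, and Fosb was not listed for the treated Irf1-/- group.

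Fos, the inducible partner that gives AP-1 its strongest DNA binding, was at 47.7, 91.1 and 122 CPM in B6 set 1, 142, 53.6 and 68.3 in set 2, and 74.5, 68.5 and 71.0 in untreated Irf1-/- colons. After AOM/DSS it was at 83.7, 119 and 126 CPM in B6 and 66.05, 78.6 and 73.8 in Irf1-/- mutants. The untreated B6 mice alone covered the whole range of the 15 libraries, with mouse 1 lowest in set 1 and highest in set 2. The 3 treated B6 libraries all lay above the 3 treated Irf1-/- libraries, while both overlapped the untreated B6 range.

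Fosb, a second inducible Fos family subunit, was close to the lower limit of the tables. It was at 2.11, 2.78 and 6.30 CPM in B6 set 1, 5.38, 3.95 and 6.16 in set 2, 10.9, 3.51 and 2.16 in untreated Irf1-/-, and 4.61, 9.80 and 7.92 in treated B6. One untreated Irf1-/- mouse had the highest value of all 12 libraries and another mouse of the same group nearly the lowest, and all groups overlapped.

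Jun, the main partner of Fos, was at 71.6, 86.6 and 75.4 CPM in B6 set 1, 100.9, 74.0 and 85.8 in set 2, and 75.0, 73.7 and 85.1 in untreated Irf1-/-. Treated mice had 126, 109.5 and 99.6 CPM in B6 and 105, 91.5 and 99.1 in Irf1-/-. All treated libraries lay above all libraries of their own untreated group, and mouse 1 of B6 set 2 reached into the treated range.

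Junb, which replaces Jun in many AP-1 dimers and is a weaker activator, was at 109.7, 103 and 107 CPM in B6 set 1, 90.1, 76.1 and 94.5 in set 2, and 92.8, 111 and 111 in untreated Irf1-/-. After treatment it was at 134, 114 and 159 CPM in B6 and 121, 141 and 124 in Irf1-/-. Every treated library exceeded every untreated one, and every mouse of set 2 was below every mouse of set 1.

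Jund, the subunit expressed without stimulation, was at 254, 312 and 267 CPM in B6 set 1, 293, 228 and 279 in set 2, and 309, 275 and 260 in untreated Irf1-/-. Treated B6 mice had 330, 357 and 352 CPM and treated Irf1-/- mice 298, 255 and 285 CPM. The treated B6 libraries were the 3 highest of all 15, and the other 4 groups overlapped.

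Egr1, the zinc finger factor that commonly accompanies Fos, was at 8.23, 8.68 and 14.6 CPM in B6 set 1, 11.8, 5.598 and 7.54 in set 2, and 13.1, 8.28 and 12.5 in untreated Irf1-/-. It was at 11.4, 16.3 and 16.4 CPM in treated B6 and 12.5, 15.2 and 14.8 in treated Irf1-/-. Treated and untreated groups overlapped in both genotypes, and the lowest values were all in untreated mice.

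Atf3, a stress-induced bZIP repressor and partner of Jun, was at 14.4, 23.3 and 28.0 CPM in B6 set 1, 38.3, 16.7 and 17.3 in set 2, and 35.3, 23.6 and 14.9 in untreated Irf1-/-. It was at 25.8, 43.6 and 37.5 CPM in treated B6 and 19.7, 28.6 and 31.1 in treated Irf1-/-. Single mice of each untreated group came up to or near the treated level, so that every pair of groups overlapped.

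Ier2, a nuclear immediate early protein, was the steadiest of the genes. It was at 28.1, 31.9 and 29.5 CPM in B6 set 1, 27.9, 28.5 and 27.4 in set 2, 28.2, 28.8 and 30.8 in untreated Irf1-/-, 32.8, 31.5 and 36.1 in treated B6, and 27.0, 29.3 and 26.6 in treated Irf1-/-. The highest and the lowest library of all 15 differed 1.36-fold, and the treated B6 mice lay above the treated Irf1-/- mice and above B6 set 2 without overlap, but overlapped set 1.

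Dusp1, the phosphatase that switches MAP kinases off, was at 14.8, 15.6 and 23.6 CPM in B6 set 1, 24.7, 16.2 and 16.0 in set 2, and 16.9, 13.8 and 19.2 in untreated Irf1-/-. Treated B6 had 24.2, 31.0 and 25.9 CPM and treated Irf1-/- 18.3, 20.9 and 24.7 CPM. Treated B6 lay above set 1 without overlap, by a narrow margin over mouse 3 of that set. Mouse 1 of set 2 reached into the treated B6 range, and the mutants' groups overlapped.

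Zfp36, which binds AU-rich elements and brings mRNAs to the decay machinery, was at 36.2, 32.4 and 34.3 CPM in B6 set 1, 29.8, 22.6 and 26.2 in set 2, and 25.0, 26.1 and 29.5 in untreated Irf1-/-. Treated B6 had 49.7, 32.5 and 49.1 CPM and treated Irf1-/- 39.7, 41.6 and 37.0 CPM. Mouse 2 of the treated B6 group stayed within the range of set 1, the treated mutants were above all untreated mutants, and set 2 was below set 1 in every mouse.

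The first comparison asked what loss of Irf1 does at steady state, setting untreated Irf1-/- against B6 set 2. Counts were tested with the quasi-likelihood test of edgeR, p-values were adjusted by Benjamini-Hochberg over all genes tested, and a call needed both a 1.5-fold difference (FC) and an adjusted p below 0.01. Of the 10 genes 0 were called, beside 0.405% of all 12588 genes, and DESeq2 and the exact test of edgeR also called 0, beside 107 and 125 of all genes. At an unadjusted p under 0.05, 1 gene was higher in the mutants and 0 were lower, where 5.2% of all genes were higher and 5.23% lower. The groups of libraries overlapped for all 10, while 7.83% of all genes were higher and 7.61% lower in every mutant library.

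The gene past the unadjusted limit was Junb, with a log2 fold change of 0.27 ± 0.10 (SE, n = 3 per group, edgeR adjusted p = 0.333). The other 9 log2 fold changes ran from -0.30 for Fos to 0.44 for Egr1, and the median of the 10 was 0.05 beside 0.00 for all genes. Against B6 set 1 in place of set 2, Junb was at -0.03 and Zfp36 at -0.36, so the sign of the Junb difference depended on the set of untreated B6 mice. With set 1 Zfp36 was lower at an unadjusted p under 0.05 (edgeR adjusted p = 0.0387) and 0 of the 10 were higher, where set 2 gave 1 higher and 0 lower. The share of all genes past the unadjusted limit with set 1 is not given here.

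The response of B6 mice to AOM/DSS was measured against set 1. Again 0 of the 10 genes were called, beside 0.0475% of all 12643 genes (edgeR), and DESeq2 and the exact test also called 0, beside 441 and 460 of all genes where edgeR's quasi-likelihood test called 6. All 10 log2 fold changes were above 0, with a median of 0.43 beside 0.01 for all genes. Every gene listed for this comparison reached at least 5.02 CPM in its third-highest library. For Fosb, mouse 3 of set 1 at 6.30 CPM and treated mice 2 and 3 at 9.80 and 7.92 CPM did so. Fosb was thus listed in part through treated mice, and its sign is not independent of that filter. At an unadjusted p under 0.05, 7 of the 10 were higher and 0 lower, where 14.7% of all genes were higher and 14.8% lower. In 4 of the 10, Jun, Junb, Jund and Dusp1, every treated library was above every library of set 1, which held for 16.4% of all genes, with 18.1% below in every library.

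Jun had the smallest p of the 10, with a log2 fold change of 0.53 ± 0.11 (SE, n = 3 per group, edgeR adjusted p = 0.0262), a 1.44-fold difference that missed both limits of a call. Fosb was at 1.00 ± 0.41, Atf3 at 0.71 ± 0.25 and Dusp1 at 0.59 ± 0.18, each past 1.5-fold with an adjusted p of 0.139, 0.0996 and 0.0750. Zfp36 and Junb were both at 0.36 and Jund at 0.33, below 1.5-fold, with adjusted p-values between 0.0663 and 0.157. Fos, Egr1 and Ier2 ran from 0.17 to 0.49 and did not pass the unadjusted limit. Single mice moved some of these values: Fosb was at 1.62 without mouse 3 of set 1 and at 0.73 without mouse 1 of set 1, and Junb was at 0.22 without mouse 3 of the treated group.

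Base composition moved with this comparison. The treated B6 libraries gave more reads to GC-rich transcripts, with a slope of 0.20 ± 0.08 log2 units per 10% of GC (mean ± SD, n = 3) against -0.05 ± 0.07 in set 1 and -0.02 ± 0.05 in treated Irf1-/-. The median GC content was 55.8% for the 10 genes and 49.6% for all genes, with Jund at 67.1%, Junb at 62.6% and Ier2 at 60.9% the richest. After a lowess correction for GC content, the median log2 fold change of the 10 was 0.29.

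The correction acted most on the GC-rich subunits. Jund went from 0.33 to 0.05, Junb from 0.36 to 0.12 and Ier2 from 0.17 to -0.04, the only one of the 10 to change sign. Atf3 was at 0.63, Dusp1 at 0.47 and Jun at 0.38 after correction, each with an unadjusted p under 0.05 still. Fosb at 0.84, Zfp36 at 0.23, Junb and Jund no longer passed that limit, which left 3 of the 7. The share of all genes past that limit in the corrected fit is not given here, so whether 3 stands out cannot be judged. Whether base composition or treatment sets the values of Jund, Junb, Zfp36 and Ier2 cannot be told apart in 3 mice per group.

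With log2 Xist as a covariate, an alternative chosen after seeing the data, Jun in the B6 response was at 0.41, Junb and Zfp36 both at 0.54, Dusp1 at 0.59, Atf3 at 0.71, Jund at 0.30 and Fosb at 1.11, and Fos in treated Irf1-/- against treated B6 was at -0.66. Atf3 and Fosb then missed the unadjusted limit.

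The choice of untreated B6 mice also moved single genes. Against set 2, the log2 fold change of Zfp36 was 0.76, that of Junb 0.66 and that of Egr1 0.83, all past 1.5-fold, and that of Jun was 0.37. Fosb was lower than against set 1, at 0.54, and no longer passed the unadjusted limit, and neither did Atf3 at 0.57. Egr1 and Ier2, the latter at 0.28, passed that limit against set 2 but not against set 1. All 10 were above 0 against either set and against both together, with medians of 0.53 against set 2 and 0.52 against both, and 0 were called in each, beside 71 of all genes against set 2 and 242 against both. Fosb is counted here with the limit of its listing given above.

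**Figure D2:**
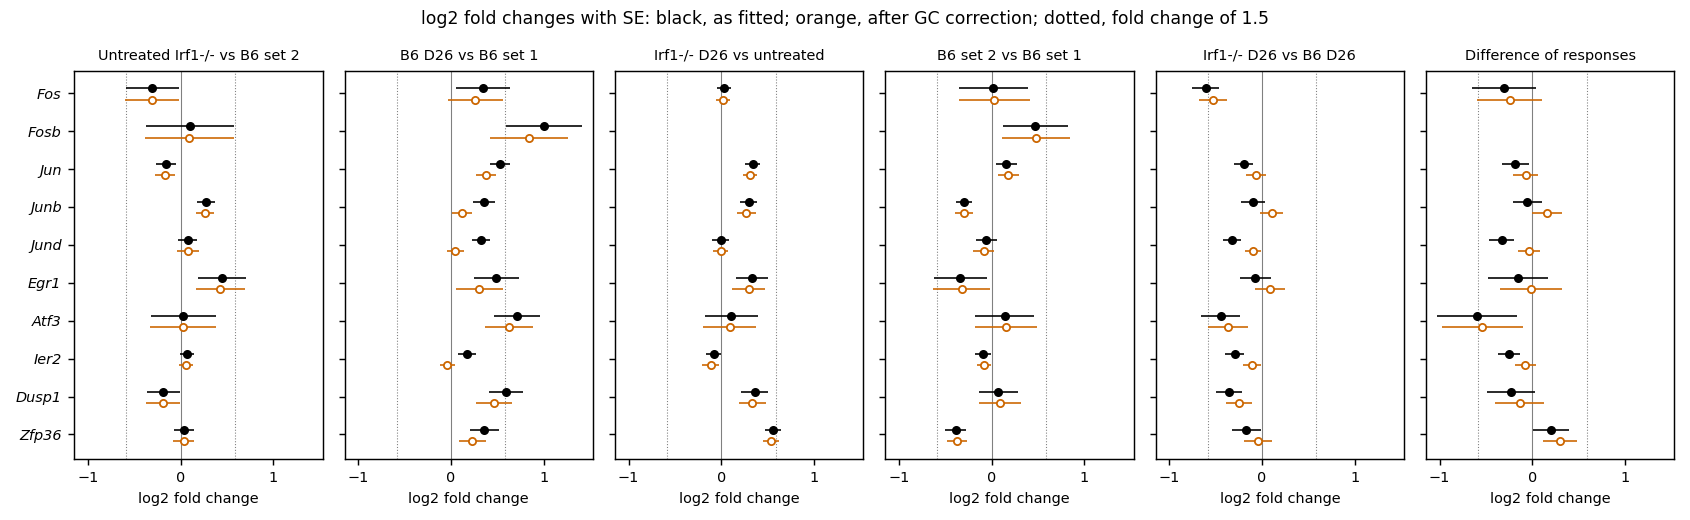
log2 fold change of each gene with its SE in the 6 comparisons, filled black as fitted by edgeR and open orange after correction for GC content, with dotted lines at a fold change of 1.5. In treated against untreated B6 the GC-rich Jund moved from 0.33 to 0.05 with the correction, whereas Zfp36 in the Irf1-/- response was at 0.56 before and 0.54 after it.

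In Irf1-/- mice the response to AOM/DSS was measured against untreated mutants, over 9 genes since Fosb was not listed. Of the 9, 0 were called, beside 0.252% of all 12692 genes (edgeR), with 0 by DESeq2 and 0 by the exact test, beside 221 and 249 of all genes. At an unadjusted p under 0.05, 4 were higher and 0 lower, where 10.1% of all genes were higher and 8.47% lower. Every treated library was above every untreated one for Jun, Junb and Zfp36, as for 12.2% of all genes, with 13% below.

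Zfp36 came nearest to a call, with a log2 fold change of 0.56 ± 0.09 (SE, n = 3 per group, edgeR adjusted p = 0.0226), which is 1.47-fold, and it ranked 81 by p among all genes. Jun was at 0.34 ± 0.08 (adjusted p = 0.0653), Junb at 0.30 ± 0.09 (adjusted p = 0.128) and Dusp1 at 0.36 ± 0.15 (adjusted p = 0.240). The correction for GC content left these 4 at 0.54, 0.31, 0.27 and 0.34. Fos, Jund, Egr1, Atf3 and Ier2 ran from -0.08 to 0.33, and Fos itself was at 0.03 ± 0.08, a tight value since the mutants varied little in it.

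Treated Irf1-/- mice were then set against treated B6 mice. The log2 fold changes of the 9 genes listed in both tables were below 0, with a median of -0.29 beside -0.01 for all genes, though 5 of the 9 did not pass the unadjusted limit, and 0 were called, beside 0.385% of all 12483 genes (edgeR). DESeq2 and the exact test each called 1, Fos, among 270 and 267 of all genes against 48 by the quasi-likelihood test, and on simulated data both made more false calls than the quasi-likelihood test. At an unadjusted p under 0.05, 4 were lower and 0 higher, where 10.6% of all genes were lower and 11.4% higher. For Fos, Jund and Ier2 every mutant library was below every B6 library, as for 13% of all genes, with 14.5% above.

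Fos had a log2 fold change of -0.61 ± 0.15 (SE, n = 3 per group, edgeR adjusted p = 0.0718), or 0.656-fold, past the limit of size but not that of adjusted p. Its adjusted p was 0.00624 in DESeq2 and 0.00656 in the exact test, and over the alternatives other than leaving out a mouse it ran from 0.00624 to 0.225. Jund was at -0.33 ± 0.10, Ier2 at -0.29 ± 0.10 and Dusp1 at -0.36 ± 0.14, with edgeR adjusted p-values between 0.110 and 0.182.

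With the correction for GC content, Fos was at -0.53, Dusp1 at -0.24, Ier2 at -0.11 and Jund at -0.10, and the median of the 9 was -0.10. Junb went from -0.10 to 0.11 and Egr1 from -0.07 to 0.09, so that 2 of the 9 were then above 0. The common sign of the 9 values was therefore not kept by this alternative, and the Fos difference was the largest both before and after it. Epithelial markers moved with this comparison, 8 of 9 being below 0 and 4 lower and 1 higher at an unadjusted p under 0.05, with a median of -0.18 and 0 called. They summed to 11621, 15951 and 14023 CPM in treated B6 and 12219, 12085 and 12798 CPM in treated Irf1-/- mice, which overlapped. Of 13 clock genes 4 were higher and 3 lower at that limit. Their part in the values of Fos and the other members was not tested.

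The difference between the responses, Irf1-/- minus B6, was tested as an interaction. Of 9 genes 0 were called, beside 0.016% of 12483 genes (edgeR), and DESeq2 also called 0, beside 75 of all genes. At an unadjusted p under 0.05, 1 was lower and 0 higher, where 7.23% of all genes were lower and 9.65% higher. The gene was Jund, at -0.33 ± 0.13 (SE, n = 3 per group, edgeR adjusted p = 0.238), which was -0.04 after GC correction. The other 8 ran from -0.60 for Atf3 to 0.20 for Zfp36, with SEs between 0.12 and 0.43, so no member was shown to respond differently in the mutants. With B6 set 2 as the B6 control, all 9 were below 0, Zfp36 being at -0.19 and Ier2 at -0.34 with an unadjusted p under 0.05, and Zfp36 was at 0.02 with both sets. The interaction had, at an unadjusted p under 0.05, 4 of 9 epithelial markers lower and 0 higher, 6 of 13 clock genes higher and 2 lower with a median of 0.80, 2 of 4 enteric nerve markers higher with a median of 0.62, and 2 of 6 fibroblast markers higher, with 0 called. Their part in the Jund value was not tested.

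The 2 sets of untreated B6 mice were compared with each other, since they serve as controls of different comparisons. In set 2 against set 1, 0 of the 10 genes were called, beside 0.0644% of all 12417 genes (edgeR), with 0 by DESeq2 and 0 by the exact test, beside 144 and 162 of all genes. At an unadjusted p under 0.05, 2 were lower and 0 higher, where 8.08% of all genes were lower and 9.11% higher. The same 2 genes, Junb and Zfp36, were lower in every mouse of set 2, as were 11% of all genes, with 10.4% higher.

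Zfp36 was at -0.39 ± 0.11 (SE, n = 3 per group, edgeR adjusted p = 0.113) and Junb at -0.29 ± 0.09 (adjusted p = 0.125), while the other 8 ran from -0.34 to 0.47. These differences between untreated mice of 1 genotype are about as large as the Junb difference between genotypes and the Junb and Zfp36 values of the B6 response. Chaperones of the heat shock response moved with the sets as well, 8 of 12 being higher in set 2 at an unadjusted p under 0.05 and Hspa1a and Hspa1b called, at 1.24 ± 0.13 and 1.23 ± 0.12. Of 13 clock genes 8 were lower and 3 higher at that limit, with Per3 called at -1.27 ± 0.14. All 9 leukocyte markers were below 0 in set 2, with a median of -0.49 and 1 lower at that limit, and all 4 enteric nerve markers were lower at it, with a median of -0.53. Leukocyte markers summed to 320, 391 and 285 CPM in set 2 and 531, 456 and 314 CPM in set 1, and enteric nerve markers to 35.3, 29.8 and 35.6 CPM and 45.5, 54.8 and 43.9 CPM. In untreated Irf1-/- against set 2, where Junb was at 0.27, 5 of 9 leukocyte markers were higher at that limit, with a median of 0.54, 6 of 12 heat shock genes were lower and 0 higher, with a median of -0.27, and 7 of 13 clock genes were higher and 4 lower, with a median of 0.54. The part of these lists in the values of Junb and Zfp36 was not tested.

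Variation among mice of 1 group was summarised as the pooled within-group SD of log2 CPM, whose median over 12370 genes was 0.13. Atf3 at 0.52, Fos at 0.48, Egr1 at 0.38 and Dusp1 at 0.28 were among the more variable genes of the colon, with 99.0%, 98.7%, 97.1% and 93.1% of all genes below them. Zfp36 at 0.19, Junb and Jun at 0.16 and Jund at 0.14 were nearer the middle. Ier2, at 0.08, was steadier than most, with 10.1% of genes below it. Fosb, over the 12 libraries that list it, had the largest SD of the 10, at 0.78.

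The spread of Fos was not even over the groups. Its SD was 0.69 in B6 set 1, 0.73 in set 2 and 0.32 in treated B6, but 0.06 in untreated and 0.13 in treated Irf1-/- mice. Atf3 did not share this among untreated mice, at 0.62 in Irf1-/- beside 0.49 and 0.67 in the B6 sets. After treatment Atf3 was at 0.39 in B6 and 0.35 in Irf1-/-. Egr1 was at 0.46, 0.54 and 0.30 in B6 set 1, set 2 and treated B6, and at 0.36 and 0.15 in untreated and treated Irf1-/-. Dusp1 was at 0.37, 0.36 and 0.18 in those B6 groups and at 0.24 and 0.21 in the mutants. Whether the spread differs between genotypes was not tested.

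Among mice of 1 group Egr1, Atf3 and Dusp1 moved with Fos. Deviations from the group mean were compared over 15 libraries for Fos against each of the other 9 genes (Fosb over 12), with exact two-sided permutation of mice within groups and Benjamini-Hochberg adjustment over the 9 pairs. For Egr1, Pearson's r was 0.84 (exact permutation p = 0.000129, adjusted p = 0.00116) and Spearman's rho 0.79 (p = 0.00180, adjusted p = 0.0162). For Atf3, r was 0.80 (exact permutation p = 0.00231, adjusted p = 0.0104) and rho 0.80 (p = 0.00412, adjusted p = 0.0185).

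For Dusp1, r was 0.77 (exact permutation p = 0.00682, adjusted p = 0.0204) and rho 0.70 (p = 0.00772, adjusted p = 0.0231). The mice behind these values can be seen in the levels: in set 2, mouse 1 was the highest for Fos, Egr1, Atf3 and Dusp1 alike, and in set 1 it was mouse 3. Without the pair of libraries whose Fos deviation from the group mean was farthest from the median deviation, mouse 1 of each B6 set, r was 0.81 for Egr1 (exact permutation adjusted p = 0.0104), 0.69 for Atf3 (adjusted p = 0.0833) and 0.67 for Dusp1 (adjusted p = 0.104). The group means were not recomputed without these mice, so they still entered the deviations and were not fully removed. In this limited check the relation of Fos to Egr1 was still past 0.05, and those to Atf3 and Dusp1 rested in part on these mice.

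The other 6 genes did not follow Fos past the threshold. For Fosb r was 0.49 and rho 0.57 (exact permutation adjusted p = 0.120 and 0.123), and for Jund r was 0.52 and rho 0.47 (adjusted p = 0.332 and 0.307). Jun, Ier2, Junb and Zfp36 had r between 0.13 and 0.38 and rho between 0.05 and 0.41, with adjusted p-values from 0.331 to 0.894. For Jun, the dimer partner, r was 0.38 and rho 0.21 (exact permutation adjusted p = 0.548 and 0.746), and r was 0.01 without those mice, the group means being kept.

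**Figure D3:**
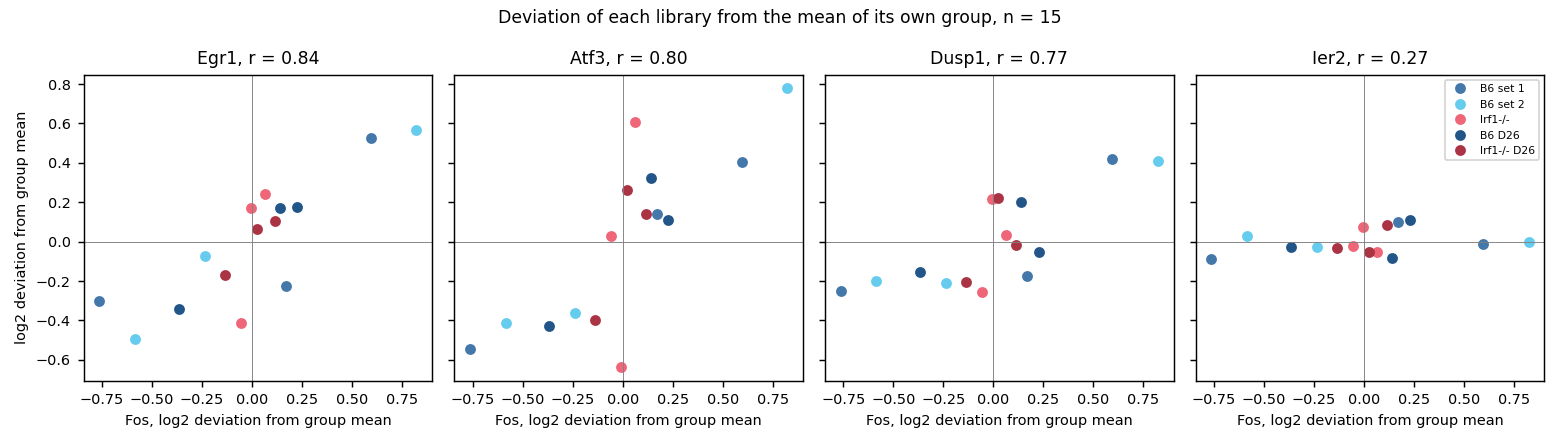
Deviation of each of the 15 libraries from its group mean in log2 CPM, Fos on the horizontal axis and Egr1, Atf3, Dusp1 or Ier2 on the vertical axis, with colors for the 5 groups. Egr1 (r = 0.84), Atf3 (r = 0.80) and Dusp1 (r = 0.77) lie along a rising line, with untreated B6 mice at both ends, and Ier2 (r = 0.27) stays flat.

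The genes outside the list with profiles most like that of Fos over the 15 libraries, by Pearson's r of log2 CPM and given as a description, were Smcr7l at 0.85, Metrnl at 0.85, Lhfpl2 at 0.79 and Clp1 at 0.77. Fam102a, Pfkfb4, Usb1 and Rhpn2 followed at 0.73 each. Metrnl had a mean of 40.2 ± 3.95 CPM (SD, n = 3) in treated B6 and 34.3 ± 1.86 CPM in treated Irf1-/-. That is the order that Fos showed, which its choice by likeness to Fos brings with it.

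The mean standardised profile of the 9 fully listed genes was most like those of Litaf at 0.90, Sertad1 at 0.89, Fam83g at 0.89 and Ptprh at 0.88. Klhl26 and Tceb3 came next at 0.87, then AI413582 and Trim46 at 0.86. Litaf, named for its induction by lipopolysaccharide, was at 112 ± 9.39, 98.9 ± 13.7 and 101 ± 4.43 CPM (mean ± SD, n = 3) in B6 set 1, set 2 and untreated Irf1-/-, and at 152 ± 9.20 and 125 ± 10.8 CPM in treated B6 and treated Irf1-/-. Its choice by likeness to the members' mean brings this order with it, as for Metrnl.

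Related genes were taken from fixed lists. Of 23 other immediate early genes tested, 0 were called in the B6 response and 0 in the Irf1-/- response, with 8 and 7 higher and 1 and 1 lower at an unadjusted p under 0.05. Their median log2 fold changes were 0.22 and 0.26, where the medians of the immediate early and AP-1 genes were 0.43 over 10 and 0.30 over 9. Ier3 was the example with the smallest p in the mutants, at 0.80 ± 0.15 (edgeR adjusted p = 0.0347), and at 0.71 ± 0.13 (adjusted p = 0.0220) in B6. The 11 other AP-1 and bZIP partners had medians of 0.10 and 0.09, and 0 were called in either response.

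Feedback inhibitors were counted beside Dusp1 and Zfp36. Of 18 tested, 1 was called in the Irf1-/- response, Socs3, the suppressor of cytokine signalling, at 1.29 ± 0.14 (edgeR adjusted p = 0.00665), and 0 were called in B6, where Socs3 was at 1.11 ± 0.23 (adjusted p = 0.0280). The medians of the list were 0.13 in the mutants and 0.17 in B6. Kinases and ternary complex factors upstream, 27 tested, had medians of 0.03 in the mutants and -0.03 in B6 with 0 called in either. In the mutants 4 inputs were higher and 1 lower at an unadjusted p under 0.05, and in B6 7 were higher and 6 lower.

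Ligands of the EGF receptor, which feed this pathway in epithelium, had 0 of 6 called, with medians of 0.23 in the B6 response and 0.25 in the Irf1-/- response. Of these ligands 1 was higher in B6 and 3 in the mutants at an unadjusted p under 0.05, with 0 lower in either response. The 1 in B6 was Hbegf, at 0.99 ± 0.18 (edgeR adjusted p = 0.0215), and those in the mutants were Tgfa, Areg and Ereg. Of 9 textbook targets of AP-1, all were above 0 in the B6 response, with a median of 0.56, 6 higher at an unadjusted p under 0.05 and 0 called. Hmox1 and Plaur, both among the 6, were at 4.14 to 4.52 and 3.92 to 4.80 CPM in set 1. Every gene listed for this comparison reached at least 5.02 CPM in its third-highest library, so both were listed only through the treated mice. Their signs were fixed by that filter and are not a result. In the Irf1-/- response 7 of the 9 were above 0, with a median of 0.22, 4 higher at that limit and 0 called. Hmox1, among the 4, was again listed only through the treated mice, its lowest untreated library being at 4.00 CPM where 5.01 was needed. Plau, the urokinase gene, was called between genotypes, at 1.46 ± 0.14 (adjusted p = 0.000691) in untreated and 0.99 ± 0.13 (adjusted p = 0.00856) in treated Irf1-/- against B6.

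The mRNAs that Zfp36 is known to destabilise were mostly outside the tables, 2 of 11 being listed, Ptgs2 and Ier3. Both were higher at an unadjusted p under 0.05 in the Irf1-/- response, with a median of 0.69 and Ptgs2 at 0.59 ± 0.19 (edgeR adjusted p = 0.143), as Zfp36 itself was at 0.56. In the B6 response 1 of the 2 passed that limit, with a median of 0.64 and Ptgs2 at 0.57 ± 0.36 (adjusted p = 0.315). Neither gene was called in either response, and protein activity was not measured.

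Cell type markers were set beside the treatment responses. Leukocyte markers summed to 531, 456 and 314 CPM in B6 set 1 and 458, 655 and 542 in treated B6, and to 339, 426 and 403 CPM in untreated and 560, 566 and 561 in treated Irf1-/- mice. In the mutants the treated sums were all higher, and 8 of 9 leukocyte markers were higher at an unadjusted p under 0.05, with 0 called. Endothelial markers had 4 of 6 higher at that limit in each genotype, and Pecam1, the most abundant, averaged 52.9 CPM over all libraries.

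Epithelial markers summed to 10396, 10647 and 10952 CPM in B6 set 1 and 11621, 15951 and 14023 CPM in treated B6, without overlap, but the 9 markers went both ways. Of these 3 were higher and 2 lower at an unadjusted p under 0.05, with a median log2 fold change of 0.18, Muc2 at 1.68 ± 0.34 (edgeR adjusted p = 0.0255), Car1 at -1.01 ± 0.17 (adjusted p = 0.0194) and Krt18 at 0.54 ± 0.09 (adjusted p = 0.0188). Smooth muscle markers had medians of 0.00 in the B6 response and 0.01 in the Irf1-/- response. Fibroblast markers had medians of 0.09 and 0.27, and enteric nerve markers of -0.45 and 0.17. Of 13 clock genes 3 were higher and 6 lower in the B6 response at an unadjusted p under 0.05, with a median of -0.53, and 2 were higher and 1 lower in the Irf1-/- response, with a median of 0.26. Of 12 heat shock genes 3 were higher and 0 lower in B6 at that limit, Hspa1a being at 0.79 ± 0.12 (edgeR adjusted p = 0.0161), and 0 passed it in the mutants, with 0 called in either response. The part of these lists in the values of Jun, Zfp36 and the other members was not tested.

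Promoters were examined for shared elements, since Fos, Egr1, Atf3 and Dusp1 varied together among mice. RefSeq promoters on GRCm38.p6 were matched for 8 members, Fos, Fosb, Jun, Junb, Jund, Atf3, Dusp1 and Zfp36, and the 250 bases before the start were searched on both strands. No promoter was matched for Egr1 or Ier2. The TATA motif (TATAAA) was found in 1 of the 8, Fos, and in 12.4% of 32851 promoters. The cyclic AMP response element (CRE, TGACGTCA) was found in 1, Dusp1, and in 1.55% of promoters. The serum response CArG box was found in 1, Zfp36, and in 1.47% of promoters. The AP-1 motif (TGANTCA) and the EGR1 motif (GCGTGGGCG) were found in 0 of the 8, and in 6.75% and 0.536% of promoters, which says only that these letters are not in this window.

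The promoters of Fos, of Atf3 and Dusp1, which followed it among mice, and of Zfp36, the gene nearest to a call in the mutants, are shown 5′ to 3′ on the strand of the gene, with matched motifs in capitals. They lie at chr12:85473640-85473889 (plus strand), chr1:191183334-191183583 (minus strand), chr17:26508473-26508722 (minus strand) and chr7:28379229-28379478 (minus strand). The TATA motif of Fos spans bases 33 to 28 before the start, the CRE of Dusp1 bases 143 to 136 and the CArG box of Zfp36 bases 58 to 49. No full motif that was searched was matched in any pair of the 4. The shorter run TGACGT, a part of the CRE, stands in the Fos and Dusp1 promoters and, as ACGTCA, in that of Atf3. It was not searched, and its share over all promoters was not counted.
Fos: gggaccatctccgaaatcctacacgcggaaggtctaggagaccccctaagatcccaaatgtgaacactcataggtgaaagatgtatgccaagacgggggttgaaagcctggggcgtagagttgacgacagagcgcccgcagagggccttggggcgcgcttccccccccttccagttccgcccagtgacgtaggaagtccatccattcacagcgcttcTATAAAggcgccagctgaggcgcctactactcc
Atf3: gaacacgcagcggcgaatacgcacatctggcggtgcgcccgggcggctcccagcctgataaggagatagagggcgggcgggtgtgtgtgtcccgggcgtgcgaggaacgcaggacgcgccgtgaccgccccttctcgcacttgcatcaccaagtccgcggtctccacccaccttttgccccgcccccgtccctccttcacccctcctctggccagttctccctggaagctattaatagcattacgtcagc
Dusp1: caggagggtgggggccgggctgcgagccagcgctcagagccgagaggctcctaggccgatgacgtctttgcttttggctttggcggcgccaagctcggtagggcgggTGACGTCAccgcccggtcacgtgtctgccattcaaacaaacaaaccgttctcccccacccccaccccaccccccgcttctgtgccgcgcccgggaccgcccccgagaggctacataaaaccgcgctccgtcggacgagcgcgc
Zfp36: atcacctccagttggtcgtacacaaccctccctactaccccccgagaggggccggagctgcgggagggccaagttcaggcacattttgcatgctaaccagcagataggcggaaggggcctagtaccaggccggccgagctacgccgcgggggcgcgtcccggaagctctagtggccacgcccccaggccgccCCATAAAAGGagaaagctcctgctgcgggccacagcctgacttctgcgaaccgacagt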

How the data were processed

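Colon RNA from 15 mice in 5 groups of 3 was sequenced by the authors as stranded, ribosome-depleted paired-end libraries, and the submitters' processing notes name TopHat2 2.0.9, Bowtie 1.0.0, featureCounts, edgeR and the build mm9. The authors deposited 3 tables of raw read counts per gene, each for the groups of 1 comparison and each without genes of low level. The 36 per-sample columns of authors' CPM and log CPM were not used, nor were the authors' comparison columns (fold change, p-value, adjusted p and dispersion). Counts of the 3 libraries held in 2 tables were identical.

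Counts were scaled by TMM and tested with edgeR 4.0.16 (glmQLFit, glmQLFTest) in R 4.3.3, each comparison on its own groups and all genes, with Benjamini-Hochberg adjustment. The SE of a log2 fold change is approximate, its absolute value divided by the square root of the F statistic of that test. DESeq2 1.42.0, the edgeR exact test, other scalings and filters, a replicate block, GC correction (lowess, span 0.3), the other B6 set and leaving out each mouse were alternatives. Fits were tested on simulated counts, drawn as negative binomial with dispersions that edgeR estimated from each comparison, a setting that need not hold for the real counts. There the share of false calls of the quasi-likelihood test was above its nominal level in most comparisons, and that of DESeq2 and the exact test was higher still in each. Levels used TMM factors of the genes in all tables, and log2 CPM used a prior count of 2. Transcript length and GC content came from GENCODE M21, promoters from RefSeq (GRCm38.p6), and no coordinates of mm9 were used. The members and lists were chosen with earlier results of these data known. All members are given in every library, with a log2 fold change where the unadjusted p was under 0.05 or the gene was called. Of other lists, up to 3 called genes, or examples with an unadjusted p under 0.05, are named, with the 8 genes most like Fos and the 8 most like the members' mean.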

Additional observations from a re-analysis of the deposited data

How the results depend on the processing

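Of 325 values under alternatives of the 19 fold changes with an unadjusted p under 0.05, 324 kept their direction. Junb in untreated Irf1-/- against B6 reversed, to a log2 fold change of -0.026 with B6 set 1. Members called in treated Irf1-/- against treated B6 went from 0 to 1 with DESeq2 and 1 with the exact test (Fos both times), and were 0 in the other comparisons under every alternative. Other fold changes given in the text, not tallied here, also reversed: Zfp36 in untreated Irf1-/- against B6 with set 1 (-0.36), with GC correction Ier2 in the B6 response (-0.04), and Junb (0.11) and Egr1 (0.09) in treated genotypes, and with B6 set 2 Zfp36 in the difference of responses (-0.19). The cause was not tested.

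Counts of all genes called depended more on the setting, and are given in the order untreated Irf1-/- against B6, B6 response, Irf1-/- response, B6 sets, treated genotypes and difference of responses, where they were 51, 6, 32, 8, 48 and 2. DESeq2 called 107, 441, 221, 144, 270 and 75. The exact test called 125, 460, 249, 162 and 267 in the first 5 and has no form for the difference. Both made more false calls than the quasi-likelihood test on simulated data. An adjusted p under 0.05 gave 93, 430, 169, 51, 184 and 6. All libraries in 1 fit gave 297 in the B6 response and 240 in treated genotypes. The filter of 10 CPM in 3 libraries gave 29 in the B6 response and 13 in the Irf1-/- response. GC correction gave 0 in the B6 response. The other B6 set gave 137 in the first comparison, 71 in the B6 response and 0 in the difference, and both sets together 242 in the B6 response and 0 in the difference. The Xist covariate, chosen after seeing the data, gave 0 in the B6 response and 15 in the Irf1-/- response. Leaving out each mouse gave 26 to 64, 0 to 152, 0 to 61, 3 to 53, 17 to 48 and 1 to 9.

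In fits with a block for the number in each mouse's label, 13 genes were called between the B6 sets, 7 in treated genotypes, 5 in the B6 response and 48 in the Irf1-/- response. With GC correction as well, these were 5, 8, 2 and 55. Mice of the same number did not pair, with a mean r across genes from -0.13 to 0.08 by comparison. The cause of these changes was not tested. The SEs of the named fold changes, 0.0795 to 0.406, set which differences could be detected.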
